A study of Mus musculus with 2 samples.

Results

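The genes described here are the 48 members of the DNA replication machinery, looked up by symbol among the 42462 gene rows that could be matched to an annotated mouse gene. They were grouped by role into origin recognition and licensing (9 genes), the replicative helicase (12), polymerases and primase (12), the sliding clamp and its loader (6), single-strand DNA binding (3), Okazaki fragment joining (2) and nucleotide supply with histone mRNA handling (4). Expression came from total RNA-seq of primary erythroblasts, the nucleated precursors of red cells, from adult male C57BL/6J mice 5 to 6 weeks old. The starting amount was 1 ng of RNA a library, and spike-ins were used. There were 2 libraries, labelled biological replicates 1 and 2 of 1 group, under a single donor entry. The labels do not say whether they came from separate animals, so the spread between them may be technical. With no second condition, there was no test between groups.

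In a dividing cell, the origin recognition complex (ORC) marks sites where replication can start, and Cdc6 and Cdt1 then load the ring-shaped MCM2-7 helicase there, a step that geminin (Gmnn) blocks. Cdc45 and the GINS complex turn the loaded ring into an active helicase. Polymerase alpha-primase makes the primers, polymerase epsilon extends the leading strand and polymerase delta the lagging strand, held by the clamp PCNA, which the RFC complex loads. Erythroblasts are known to divide several times while they build up haemoglobin and before they lose the nucleus.

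The libraries held 80806663 and 117032607 expected counts (estimated reads), of which nuclear protein-coding genes took 5.44% and 5.82%. Levels are therefore given as rescaled TPM, the deposited TPM of a gene divided by the sum over the 21461 nuclear protein-coding genes and multiplied by 1000000. A rescaled TPM of 1 equals a deposited TPM of 0.0468 in replicate 1 and 0.0510 in replicate 2. A count of 0 allows up to 3 counts, which for a transcript of 1 kb is a rescaled TPM of 0.892 and 0.555. The 14 erythroblast markers were all detected and summed to 45.2% and 44.8% of the nuclear protein-coding TPM. They were led by the globin genes Hba-a2, at a rescaled TPM of 153025 and 146050, and Hbb-bs, at 145781 and 153043. Most of that sum was globin, so it does not set the remaining erythroblast markers above those of other cells. All 14 neutrophil precursor markers were detected too, at 4.44% and 4.69%, led by S100a9 and S100a8, as were all 11 monocyte and macrophage markers, at 0.467% and 0.496%. All 6 markers of basophils, mast cells and eosinophils were detected, at 0.0833% and 0.0686%, led by Mcpt8, as were all 5 of megakaryocytes, at 0.00855% and 0.0111%. Of 6 stem and progenitor markers 3 were detected, led by Kit at a rescaled TPM of 24.0 and 19.6, and 1 had 0 counts in both libraries. Of 8 B-lineage markers 1 was detected, Cd79b at 10.9 and 16.5, and 3 had 0 counts, and of 6 T and NK markers 2 were detected, led by Nkg7 at 108 and 126, and 2 had 0 counts. The part that these other cells have in the replication gene levels was not tested. In bulk RNA, fewer cells of a type and less RNA per cell cannot be told apart.

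All 48 replication genes were detected, meaning a rescaled TPM of at least 1 in both libraries, against 42.9% of nuclear protein-coding genes. The median member stood at a rescaled TPM of 24.9 ± 2.03 (SD, n = 2 libraries, as for every mean below), and the median over all nuclear protein-coding genes was 0.642 and 0.392 in the 2 libraries. Among the 9210 detected genes the median was 14.5 in both. The members together held 12320 and 19188 counts, or 0.280% and 0.282% of the nuclear protein-coding counts. The count of detected members depends on the scale: 24 of them had a deposited TPM of at least 1 in both libraries. The share of all nuclear protein-coding genes at that higher line is not given here, so the 24 cannot be set beside the 42.9%.

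**Figure D1:**
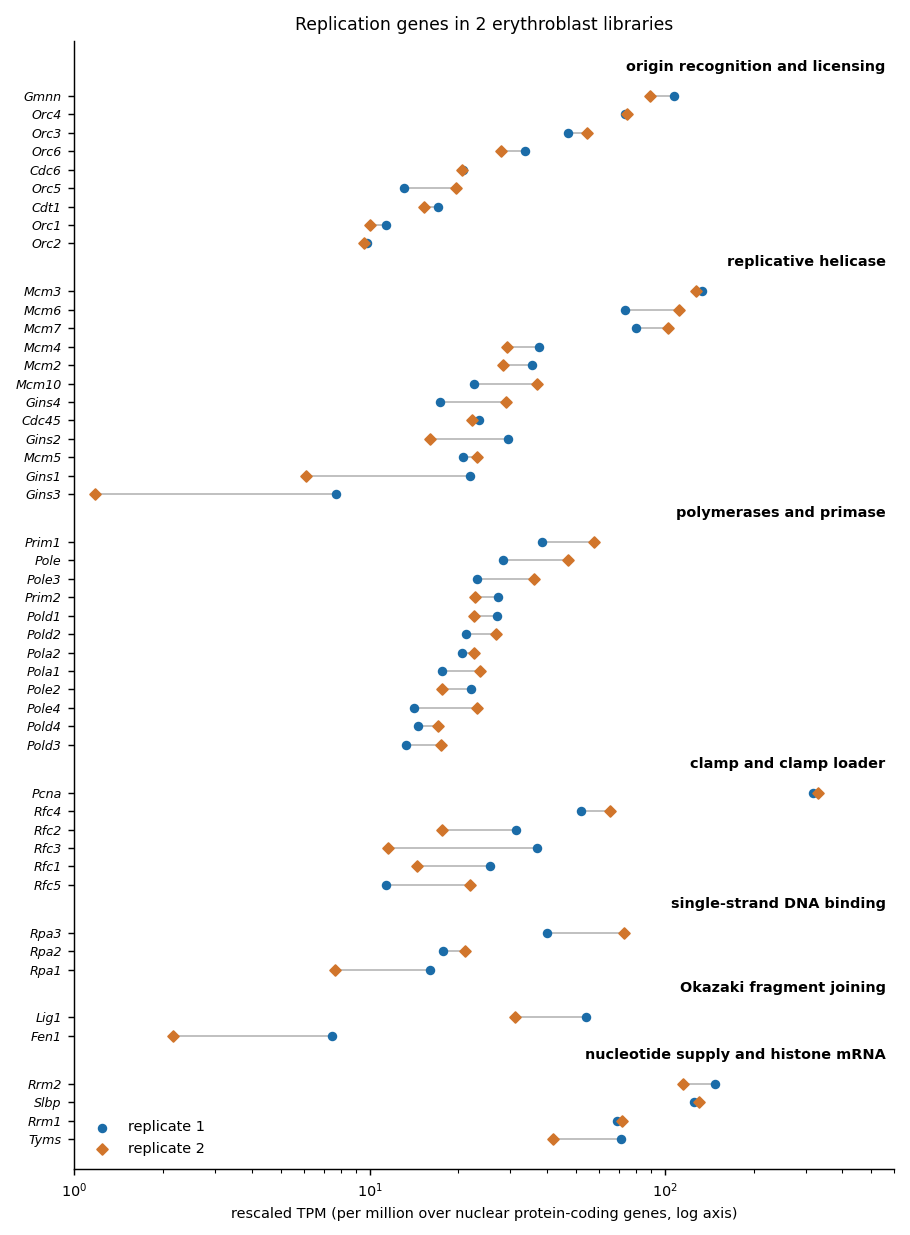
Rescaled TPM (log axis) of the 48 replication genes, grouped by role and ordered by mean within each role, with replicate 1 as a circle and replicate 2 as a diamond. Pcna lies at the right edge above 300 in both libraries, and Gins3 and Fen1 are the genes with a point below 5.

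The 2 genes that mark the module were both well detected, but their levels rest on different kinds of transcript. Pcna (ENSMUSG00000027342, mm10 chr2:132249162-132253314, minus strand) was the highest member, at a rescaled TPM of 316.9 and 330.3 from 1269 and 2122 counts, rank 299 among nuclear protein-coding genes. Its coding transcript Pcna-201 carried 70.2% and 71.0% of the gene's TPM. Mcm3 (ENSMUSG00000041859, mm10 chr1:20802968-20820312, minus strand), a helicase subunit, stood at 134 and 128 from 425 and 622 counts. Its coding transcript Mcm3-201 carried only 16.7% and 16.5% of that TPM, although 218 of the 425 counts and 330 of the 622 counts were assigned to it. The rest went to Mcm3-203 and Mcm3-205, annotated as retained-intron transcripts of 716 and 607 bases, against 3031 bases for Mcm3-201. Since TPM divides counts by length, the short models weigh more in TPM than in counts.

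The Mcm3 retained-intron models hold few bases outside the exons of the coding transcript, and cover only part of it. Of the 716 bases of Mcm3-203, 649 lie in exons of Mcm3-201 and 67 do not, and for Mcm3-205 the numbers are 581 and 26. Other models hold more such bases: in Mcm7-202, 555 of 986 bases lie outside the exons of its coding transcript. The models below are shown because they carry much of the gene-level TPM of a helicase subunit, the primase, the clamp or a clamp loader subunit. Each sequence is the point where the model leaves intron sequence and enters an exon of the coding transcript, 5′ to 3′ on the gene's strand. Lower case is intron, the 30 capitals are the first bases of the exon, and all bases are from GENCODE M21 transcripts on mm10.
Mcm3-203, chr1:20803625-20803714, minus strand: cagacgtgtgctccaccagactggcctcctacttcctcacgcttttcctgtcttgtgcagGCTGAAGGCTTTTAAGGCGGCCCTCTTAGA
Mcm3-205, chr1:20804878-20804933, minus strand: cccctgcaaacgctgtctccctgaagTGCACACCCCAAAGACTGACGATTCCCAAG
Mcm7-202, chr5:138165132-138165221, minus strand: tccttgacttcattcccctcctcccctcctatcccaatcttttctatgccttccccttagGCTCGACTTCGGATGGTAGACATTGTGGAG
Prim1-204, chr10:128026993-128027082, plus strand: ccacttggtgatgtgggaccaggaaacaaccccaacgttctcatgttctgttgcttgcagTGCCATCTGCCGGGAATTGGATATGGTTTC
Pcna-204, chr2:132249868-132249957, minus strand: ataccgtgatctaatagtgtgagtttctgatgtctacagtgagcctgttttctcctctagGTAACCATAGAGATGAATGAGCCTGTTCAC
Rfc4-205, chr16:23114703-23114744, minus strand: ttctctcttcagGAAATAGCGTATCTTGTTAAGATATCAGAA
Rfc3-207, chr5:151644682-151644762, minus strand: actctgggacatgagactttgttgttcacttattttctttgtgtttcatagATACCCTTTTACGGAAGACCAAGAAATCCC
In Rfc4-205 the whole intron stretch is the 12 bases printed, out of a model of 449 bases. For Mcm3-203, Mcm7-202, Prim1-204 and Pcna-204 the last 60 intron bases are shown, out of 67, 555, 366 and 273 bases that lie in no coding exon of the gene. Every intron stretch shown ends in ag, the usual last bases of an intron.

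Across the members, 19 such retained-intron models in 15 genes carried at least 20% of the gene's TPM in at least 1 library and had the same length in both annotations. Their median length was 716 bases. The bases outside the exons of the coding transcript with the longest reading frame had a median of 67 and ranged from 12 to 555, with 13 of the 19 models under 100. The model ended in the last exon of the coding transcript in 14 of the 19. The shares over all genes are not given here, so these counts cannot be set beside other genes. The tables give no read positions, so how many reads fell on the intron bases was not tested.

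By TPM, the leading transcript was typed other than protein coding in 14 of 48 members. In 8 of these it was a retained-intron model, in Mcm3, Mcm7, Mcm10, Gins2, Prim1, Pold1, Rfc3 and Rfc4. In Rfc1, the large loader subunit, it was a transcript that has no entry in GENCODE M21, so its type is not known here and it was counted with the 14. Among the 41 members with a mean of at least 100 counts the share was 26.8% (11 genes), against 13.3% of the 5536 nuclear protein-coding genes at that depth. By counts in place of TPM, the leading transcript was not typed protein coding in 4 members, Mcm10, Gins2, Lig1 and Rfc1, the last again with no M21 entry. The share over all genes by counts is not given here, so the 4 cannot be set beside the 13.3%. The leading transcript by TPM differed between the libraries in 10 of the 41, or 24.4%, against 21.7% of genes at that depth, so in this the members lay close to other genes.

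Over all members, retained-intron transcripts took 22.2% of TPM in each library, but 10.9% and 10.7% of counts. Over all nuclear protein-coding genes they took 18.7% and 19.5% of TPM and 9.97% and 10.3% of counts. Coding transcripts held under 50% of the TPM in 13 members. Of the 41 deeper members 26.8% were below that line, and of all genes at that depth 14.0%. In 18 members no transcript of another type had any TPM or reads in either library. Of these, 10 have a single quantified transcript, among them Mcm2, Mcm4, Mcm5 and Rrm1, so no other type could take reads. Gmnn has 5 transcripts, with reads on 1 of them. The share over all genes is not given here.

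**Figure D2:**
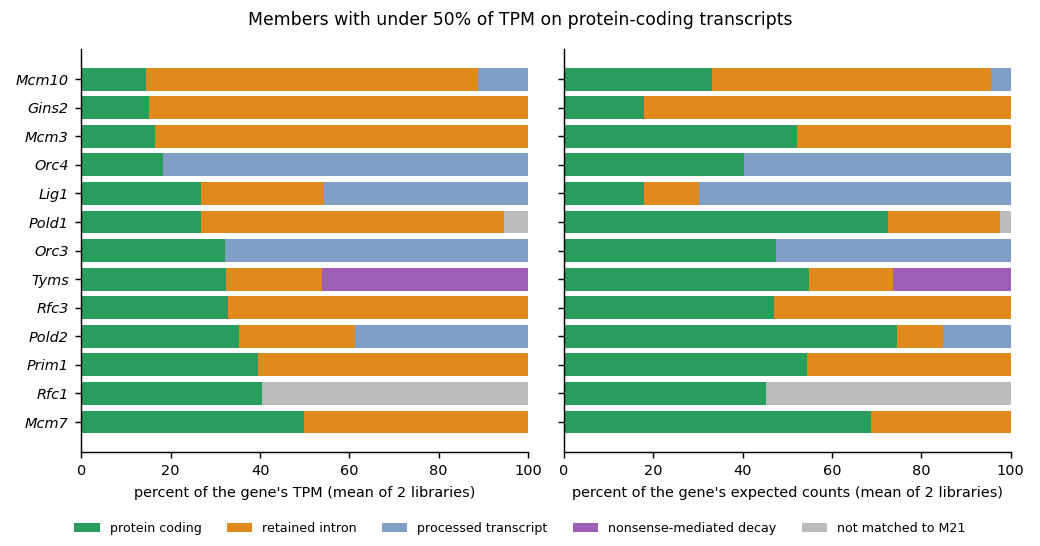
Percent of each gene's TPM (left) and of its expected counts (right) on each annotated transcript type, as the mean of both libraries, for the 13 members with under 50% of TPM on coding transcripts. In Mcm3 and Pold1, among others, the protein-coding bar on the counts side is more than 2 times as long as on the TPM side.

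Among the licensing genes, Gmnn, the inhibitor of Cdt1, was highest at a rescaled TPM of 108 and 89.4, all on its coding transcript. Its target Cdt1 stood at 17.1 and 15.3, and the loading factor Cdc6 at 20.7 and 20.6. The ORC subunits ran from Orc2 at 9.84 and 9.61 to Orc4 at 73.1 and 74.5. Orc1, the subunit known from human cells to be degraded during S phase, was near the low end at 11.3 and 10.0. On coding transcripts alone, Orc4 had 15.0 and 12.2, and Orc3 had 17.1 and 15.5 in place of 47.1 and 54.5. The rest of the TPM of both genes was on models typed as processed transcripts.

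Among the 6 subunits of the MCM2-7 ring, Mcm3 came first by gene-level TPM, with Mcm6 next at 73.4 and 111 and Mcm7 at 79.8 and 102. Mcm4 stood at 37.6 and 29.2, Mcm2 at 35.5 and 28.2, and Mcm5 was lowest at 20.7 and 23.1. Mcm6 and Mcm7 overlapped between libraries, as did Mcm4 and Mcm2. The highest mean was 5.97 times the lowest. On coding transcripts alone Mcm3 fell to the lowest place, at 22.2 and 21.2, next to Mcm5 at 20.7 and 23.1, and Mcm6 led at 68.2 and 82.6, a span of 3.47 times. With the gene's reads divided by the length of its longest coding transcript, the span was 2.44 times, Mcm6 led at 57.7 and 70.0, and Mcm3 stood at 51.6 and 47.7. The place of Mcm3 in the ring thus depends on which of its transcripts are counted, while Mcm5 was lowest or within the spread of the lowest under all 3.

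The other helicase genes lay below Mcm3, Mcm6 and Mcm7. Cdc45 stood at 23.5 and 22.2, and Mcm10, a factor that helps activate the helicase, at 22.7 and 37.1. In GINS, Gins4 had 17.3 and 29.0, Gins2 had 29.5 and 16.1, Gins1 had 21.8 and 6.08, and Gins3 had 7.70 and 1.18. Gins3 rested on 59 and 14 counts and was the lowest of all members in replicate 2. The Gins2 level is uncertain, since 2758 bases of its exons are shared with Gse1 on the opposite strand, which had 313 and 533 counts, and the labels do not say that reads were counted by strand. Its coding transcript Gins2-201 was given 10.9% and 19.5% of its TPM.

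The polymerase genes lay close together. Prim1, the catalytic primase subunit, was highest at 38.5 and 57.7, with Pole, the catalytic subunit of polymerase epsilon, at 28.2 and 47.1, and its small histone-fold partner Pole3 at 23.1 and 36.1. The lowest mean was that of Pold3, an accessory subunit of polymerase delta, at 13.3 and 17.5. The place of Pole depends on its coding models. Pole-202, of 1523 bases, carried 37.0% and 66.0% of its TPM, and Pole-201, of 7163 bases, 29.5% and 13.6%. Per longest coding length Pole had the lowest mean in polymerase epsilon, at 14.2 and 16.9, and Pole3 the highest, at 27.4 and 42.4. Pold1, the catalytic subunit of polymerase delta, stood at 26.9 and 22.6 by gene-level TPM and at 6.42 and 6.67 on coding transcripts. The 4 subunits of polymerase alpha-primase spanned 2.33 times by gene-level TPM, but 1.15 times on coding transcripts, at means of 18.8 for Prim1 to 21.6 for Pola2. That was the narrowest of the 8 complexes by that measure.

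Among the clamp genes Pcna stood far above its loader. Rfc4 had 52.2 and 65.1, Rfc3 had 36.8 and 11.6, Rfc2 had 31.4 and 17.7, Rfc1 had 25.7 and 14.5, and Rfc5 had 11.3 and 22.0. Apart from Rfc4, which was above the others in both libraries, the RFC subunits overlapped. The pseudogene Pcna-ps2 held 6.13 and 7.39 counts and Pcna-ps1 held 0, few beside those of Pcna, which kept 81.6% and 81.7% of its counts on coding transcripts. Among the RPA subunits, which coat single-stranded DNA, the smallest one, Rpa3, was highest at 39.8 and 72.6, followed by Rpa2 at 17.7 and 21.0 and Rpa1 at 16.04 and 7.65.

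Of the 2 genes of Okazaki fragment joining, the ligase Lig1 had 54.1 and 31.0, and the flap nuclease Fen1 had 7.48 and 2.16 from 55.3 and 22.5 counts. For Lig1 the transcript model depends on the library, since its typed coding transcripts held 53.4% of its TPM in replicate 1 and 0% in replicate 2. Fen1 (mm10 chr19:10199132-10204169, minus strand) shares 1909 exon bases with Gm10143, a gene annotated antisense to it that was given 130 and 142 counts. The deposited posterior SD of the Fen1 count was 9.20 and 4.44 reads, the highest of the members in replicate 1. Reads of the 2 genes cannot be told apart without strand, so the low place of Fen1 is uncertain. The posterior SD was 0 in both libraries for 36 of the 48 members.

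Among the roles, the 4 genes of nucleotide supply and histone mRNA handling had the highest median level. Rrm2, the cell-cycle regulated subunit of ribonucleotide reductase, stood at 148 and 116, its partner Rrm1 at 68.9 and 71.4, and Slbp, which binds the stem-loop of replication-dependent histone mRNAs, at 126 and 131. Tyms, which makes thymidylate, had 71.2 and 42.0, of which coding transcripts held 17.7% and 47.2%.

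Summed over members, the helicase genes had the highest rescaled TPM, 519 ± 21.6, followed by the clamp and loader genes at 468 ± 9.38 and the nucleotide and histone mRNA genes at 387 ± 38.3. The licensing genes summed to 327 ± 8.46 and the polymerases to 301 ± 47.7, which overlapped between libraries. RPA summed to 87.4 ± 19.5 and fragment joining to 47.4 ± 20.1. Per gene the order was another: the median nucleotide or histone mRNA gene stood at 96.0 ± 3.63, and the medians of the other 6 roles lay between 19.4 and 27.6. That first place also held in counts, at a median of 748.5 and 1128.5 per gene, where the next, the helicase, had 251 and 361. The first place of the helicase by sum did not hold on coding transcripts alone, where the nucleotide and histone mRNA genes summed to 324 ± 4.35, the clamp and loader to 310 ± 13.4 and the helicase to 301 ± 4.12. The last 2 overlapped between libraries. Per longest coding length the clamp and loader led at 460 ± 18.4, before the nucleotide and histone mRNA genes at 391 ± 14.3 and the helicase at 375 ± 14.5. By summed counts the helicase kept first place, at 3327 and 5114, before the nucleotide and histone mRNA genes at 2771 and 4198. Pcna set the clamp sum: that role took 22.3% and 21.5% of the members' TPM but 16.6% and 15.9% of their counts.

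Subunits of the same complex were not at equal levels. The highest mean was 7.59 times the lowest in ORC, 5.97 in MCM2-7, 5.22 in GINS, 4.74 in RPA, 3.52 in RFC, 2.33 in polymerase alpha-primase, 2.02 in polymerase epsilon and 1.61 in polymerase delta. The spans of GINS and RPA rest on the library: GINS spanned 3.83 times in replicate 1 and 24.7 in replicate 2, where Gins3 had 14 counts, and RPA spanned 2.48 and 9.49 times. ORC spanned 7.43 and 7.76 times and MCM2-7 spanned 6.45 and 5.53, so ORC was widest in replicate 1 and GINS in replicate 2. On coding transcripts the span was narrower in 3 of the 8 complexes (ORC, MCM2-7 and polymerase alpha-primase) and wider in the other 5. Per longest coding length it was narrower in 4. The log2 span, as the median over the 8 complexes, was 1.62 in replicate 1 and 2.48 in replicate 2.

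**Figure D3:**
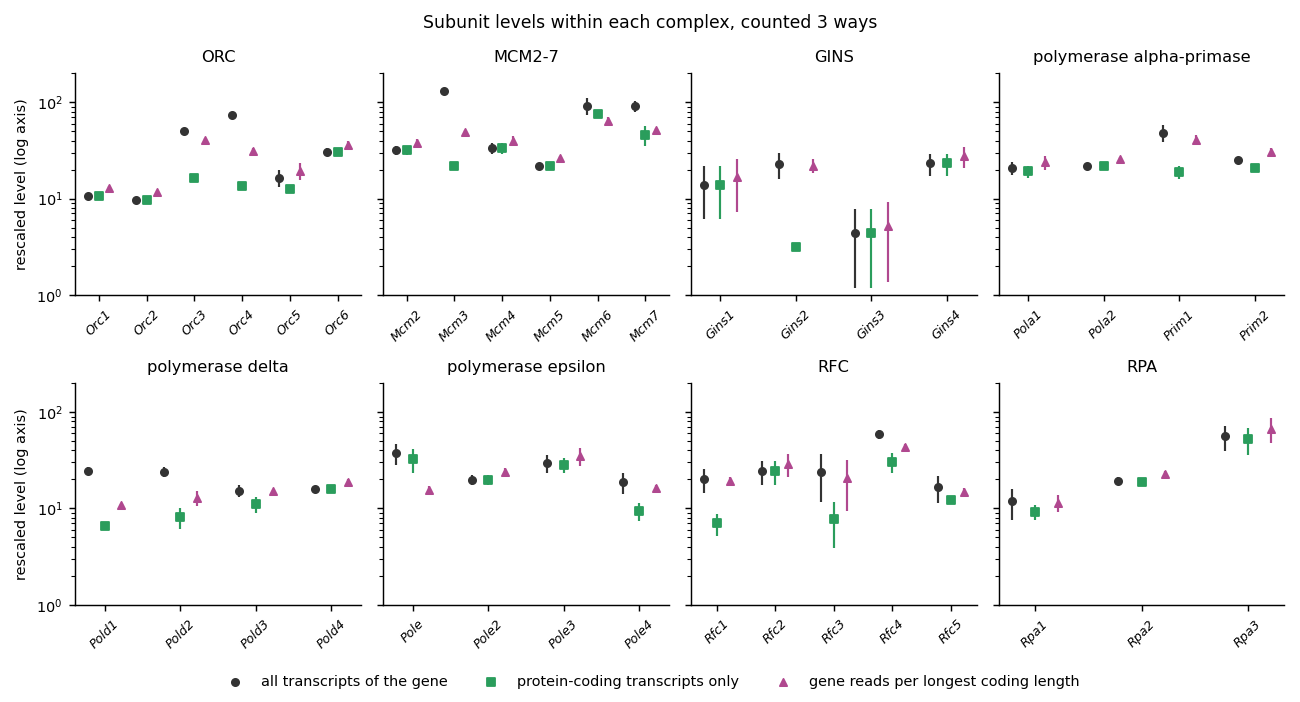
Rescaled level (log axis) of each subunit in 8 complexes, from all transcripts of the gene (black circles), from coding transcripts only (green squares), or from the gene's reads per longest coding length (purple triangles), with the mean of both libraries as the symbol and their range as the line. Mcm3, Orc4, Orc3, Pold1 and Gins2 drop most between the black and green symbols, and Gins3 has a long line under each of the 3 measures.

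Between the libraries, the deeper members agreed within 2 times. After TMM scaling, none of the 41 members with a mean of at least 100 counts differed by over 2 times, against 7.54% of the 5780 genes at that depth. The median log2 ratio of replicate 2 over replicate 1 was -0.01 for the members and 0.05 for all genes at that depth, and its median size without sign was 0.23 and 0.30. By 1.5 times, 5 of the 41 differed: Rpa3 (0.88 on the log2 scale), Gins4 (0.78), Pole3 (0.68) and Orc5 (0.64), higher in replicate 2, and Rfc2 (-0.75), lower in it. That is 12.2% of them, against 23.4% of all genes at that depth. The 95% counting interval of the ratio did not hold 0 in 20 of the 41, against 62.8% of all genes at that depth, a set that also holds genes of far higher counts. These intervals cover counting error only. The reads carry no molecular identifiers, so amplified copies of 1 molecule could not be told from separate molecules.

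The exceptions were among the 7 members under a mean of 100 counts. Of these, 4 differed by over 2 times, all lower in replicate 2: Gins3 at a log2 ratio of -2.49 (counting interval -3.64 to -1.82), Fen1 at -1.82, Gins1 at -1.70 and Rfc3 at -1.64. Of the 4178 genes whose mean count lay from 20 to below 100, 39.7% differed by over 2 times in either direction and 17.8% were over 2 times lower in replicate 2. With 7 members, the 4 are too few to set beside that share.

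**Figure D4:**
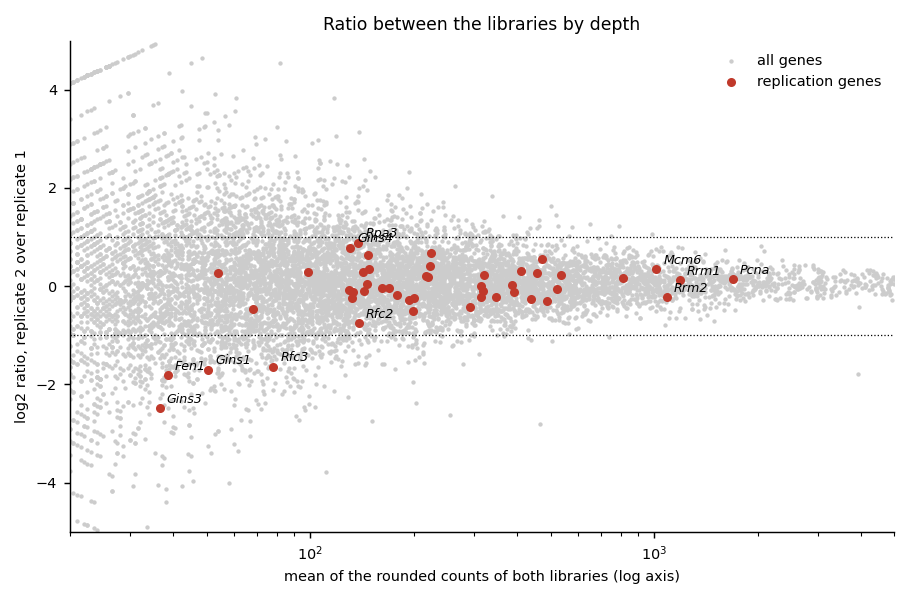
Log2 ratio of replicate 2 over replicate 1 after TMM scaling, against the mean rounded count (log axis, from 20 counts), for all genes (grey) and the 48 replication genes (red), with dotted lines at 2 times in each direction. All members right of 100 counts lie between the lines, and Gins3, Fen1, Gins1 and Rfc3 lie below them at the left.

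Other genes linked to replication were mostly detected too, given here by gene-level TPM. Of 49 genes in 6 further lists, 47 were detected, against 42.9% of nuclear protein-coding genes, and the median of the 49 was 25.5 ± 0.837. For origin firing, 6 of 7 were detected, with Topbp1 at 50.9 and 77.9 as the highest and Recql4 at 0.855 and 1.77 as the lowest. For fork protection and checkpoint, 6 of 7 were detected, with Tipin at 55.2 and 96.9 above Clspn at 30.2 and 26.9, and the ATR partner Atrip at 4.28 and 0.196 below the line. All 5 genes of the alternative clamp loaders and clamp unloading were detected, from Dscc1 at 4.92 and 8.04 to Atad5, which unloads PCNA, at 25.7 and 32.8.

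The topoisomerases led the list for primer removal and topology, of which all 6 genes were detected. Top1 had 148.8 and 150.8 and Top2a had 156 and 135 by gene-level TPM, where Rrm2 had 148 and 116. On coding transcripts Top1 had 76.8 and 86.3 and Top2a had 70.6 and 54.5, below the 132 and 115 of Rrm2. All 15 other nucleotide enzymes were detected, at a gene-level median of 38.1 and 32.0, against 98.6 and 93.4 for the 4 nucleotide and histone mRNA members. By gene-level TPM the highest means were those of thymidine kinase Tk1 at 95.6 and 99.0, Impdh2 of guanine nucleotide synthesis at 65.7 and 122, and the dNTP hydrolase Samhd1 at 107 and 71.8, with the deoxycytidine kinase Dck at 65.4 and 107.7 overlapping them. On coding transcripts Dck kept its level and had the highest mean, Tk1 had 28.2 and 23.9, Impdh2 had 45.8 and 55.9, and Samhd1 had 61.2 and 57.1. Dck was named after its values were seen. All 9 genes of replication-coupled chromatin were detected, from the assembly factor subunit Chaf1a at 11.5 and 7.06 to the FACT subunit Ssrp1 at 63.1 and 55.7.

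Promoter sequence was compared as a feature the choice of genes did not use. E2F factors are known activators of replication genes at the onset of S phase. In RefSeq promoters (build GRCm38.p6, 250 bases before to 50 after the start), 40 of the 48 members had an entry. The E2F-type words TTTCCCGC or TTTGGCGC, on either strand, were found in 14 of these 40, or 35%, against 2.4% of the 16522 protein-coding genes with an entry. The shorter word CCAAT, on either strand, was found in 62.5% of them and in 42.1% of those genes. The 14 members with an E2F-type word had a median rescaled TPM of 21.4 and 22.8, and the 26 without had 24.6 and 28.0, so the median was not higher with the word. The 100 bases before the RefSeq start are shown for Mcm6 and Gins3, a high and the lowest member with a match, and for Pcna, the highest member. The match is in capitals (GCGGGAAA is TTTCCCGC on the other strand). In Pcna and Gins3 these bases lie inside the gene as annotated in GENCODE M21, which starts further upstream.
Mcm6, chr1:128359706-128359805, minus strand: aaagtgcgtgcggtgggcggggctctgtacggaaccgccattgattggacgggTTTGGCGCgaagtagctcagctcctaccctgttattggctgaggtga
Gins3, chr8:95633459-95633558, plus strand: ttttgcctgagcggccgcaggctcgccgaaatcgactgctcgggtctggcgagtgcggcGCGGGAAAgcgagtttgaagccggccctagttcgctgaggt
Pcna, chr2:132253181-132253280, minus strand: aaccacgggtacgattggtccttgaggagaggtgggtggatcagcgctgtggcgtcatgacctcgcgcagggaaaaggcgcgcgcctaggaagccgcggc
A match is a description of letters and not a bound site, and the absence of these words in the Pcna window says only that they are not in it.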

How the data were processed

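Each of the 2 erythroblast libraries came with a gene table and a transcript table. Per the deposited read-me, these were quantified on mm10 with GENCODE M4. Which aligner and quantifier the authors ran is not given in the sources used here. Deposited expected counts are estimated reads and need not be whole. The deposited TPM was scaled by the authors over all rows, mitochondrial rRNA and spike-ins included, which is why it was rescaled here. FPKM, per the file headers, was used as an alternative unit. A score deposited beside TPM, its posterior mean, was an alternative estimate, and the deposited posterior SD of counts describes read sharing. The deposited percent of a gene's TPM on each transcript gave the leading transcripts.

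Rows were matched by Ensembl identifier to GENCODE M21 (42462 of 43346), which gave symbols, types, coordinates and sequences. A transcript type is that of M21. Counts were rounded for edgeR 4.0.16 (TMM factors 0.976 and 1.02, prior count 2). DESeq2 1.42.0 size factors were an alternative. Ratios were tested on simulated data. Exact binomial counting intervals are at 95%. Tables were handled in Python 3.11.15 with pandas 2.3.3 and scipy 1.17.1.

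The members, gene lists and rules were chosen with earlier results of these data known. Any member could be named, and from each further list up to 3 genes with the highest and 1 with the lowest mean level. At least 1 gene that fits this rule is not reported here. No p-value is given, since there is 1 group.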

Additional observations from a re-analysis of the deposited data

How the results depend on the processing

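No paired analysis was possible because both libraries belong to 1 group. With a deposited TPM of 1 as the line, 24 of 48 members and 28 of the 49 other replication genes were detected, with no share over all genes given at that line. The clamp and loader share of the members' level was 21.9%, and 16.3% by counts, 21.0% on coding transcripts and 23.9% per longest coding length. It was 21.5% to 22.3% without either replicate. The median member level of 24.9 became 44.1 when globin genes were left out of the rescaling, 36.6 from counts without length correction and 19.5 on coding transcripts. Without either replicate it was 23.4 to 26.3. The number of members that differed by over 2 times between libraries, 0 at 100 counts, was 4 at a mean of 20 counts, 4 with no filter and 1 as a ratio of rescaled TPM. It was 5 at 1.5 times, and leaving out a replicate gives no ratio. Members led by a transcript not typed protein coding numbered 14, and 4 by counts, with 11 to 13 when a replicate was left out. Detection at 0.5 or 5, FPKM, the posterior mean, DESeq2 size factors and a prior count of 0.5 kept each of these values within its replicate spread or within 1.5 times. The values on coding transcripts and per coding length were chosen after seeing the data. Fewer than 100 counts limit Gins3, Fen1, Gins1, Rfc3, Pold2, Pold4 and Pole4.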
